A study of Mus musculus with 8 samples.

Results

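Arhgap36 and 8 core components of the Hedgehog pathway (Gli1, Gli2, Gli3, Ptch1, Smo, Sufu, Hhip and Prkaca) were examined in the transcriptome of immortalized mouse embryonic fibroblasts (MEFs) with and without SLMAP3. These 9 genes were taken by name from the 55401 genes of the deposited table, and all 9 were among the 15461 genes with enough reads to be tested. Arhgap36 was selected on its own difference in level between SLMAP3-/- and WT MEFs in these same libraries, so that difference is described here without a test, and the other 8 were chosen by name for their place in the pathway. RNA was sequenced from 4 SLMAP3-/- and 4 WT lines, 1 library per line. All lines came from E14.5 embryos of the B6C3F1 strain, with the head and organs taken away, were grown with 10% fetal bovine serum and were immortalized by SV40 large T antigen, so the WT cells carry this oncogene as well. The knockout removed a floxed exon of Slmap through Cre driven by the CMV promoter, which acts in the whole embryo. No source used here names a Hedgehog ligand or Smo agonist among the treatments.

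Hedgehog signalling starts when a secreted ligand binds the receptor Ptch1 and thereby frees Smo, a membrane protein that enters the primary cilium. Active Smo lets the transcription factors Gli2 and Gli3 escape from Sufu, which restrains them, and from protein kinase A, which primes them for processing into repressors. Gli1, Ptch1 and Hhip are themselves target genes, so their transcripts are widely used as readouts of the pathway. Arhgap36 binds and inhibits the catalytic subunits of protein kinase A, among them the product of Prkaca, and so activates Gli factors without need of Smo.

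Levels are given as CPM, the estimated reads of a gene relative to the size of its library, after TMM normalization put all lines on a common scale. The total ranged from 49879059 to 63322486 estimated counts per line. Slmap, the targeted gene, lay between 32.7 and 44.3 CPM in SLMAP3-/- lines and between 124 and 143 CPM in WT lines, and every line matched its label. Fibroblast markers were strongly expressed, with Col1a1 at 4508 CPM or more in each line, although Dcn and Lum stayed under 20 CPM. The summed level of 4 blood and macrophage markers was 2.12 to 5.48 CPM, mostly Cd68, with Ptprc at 0.18 CPM or less. That of 4 epithelial markers was 0.580 to 1.68 CPM, mostly Epcam and Cdh1, and that of 3 muscle markers 0.134 to 0.442 CPM. The 3 cartilage markers summed to 19.2 to 54.1 CPM in SLMAP3-/- and 28.7 to 66.2 CPM in WT lines, with Sox9 at 10.1 to 36.2 CPM. The other cartilage markers varied more between lines, with Acan at 0.571 to 13.7 CPM and Col2a1 at 0.537 to 27.1 CPM. Both extremes of Col2a1 were SLMAP3-/- lines. The endothelial markers Pecam1 and Cdh5 were at 0.227 CPM or less, while Kdr and Tek, which other cells also express, were higher. Kdr was at 8.60 to 28.4 CPM in SLMAP3-/- and 7.87 to 22.6 CPM in WT lines. Tek was at 2.11 to 12.2 CPM in SLMAP3-/- and 1.55 to 4.76 CPM in WT lines. Reads on 4 Y-linked genes were present in SLMAP3-/- line 2 and WT line 3, with sums of 208 to 211 CPM, and stayed at 0.0803 CPM or less in the other lines. Xist was at 0 CPM in SLMAP3-/- line 2 and 0.170 CPM in WT line 3, and at 855 to 1027 CPM in the other lines. The sex of the embryos is not labelled. The lines are not stated to come from separate litters, so the p-values measure the spread between these lines only.

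Arhgap36 (ENSMUSG00000036198, GRCm38 chrX:49463945-49500244, plus strand) codes for the protein kinase A inhibitor and was lower in every SLMAP3-/- line than in any WT line. Its level was 0.242, 0.881, 0.145 and 0.422 CPM in SLMAP3-/- lines 1 to 4, from 14, 44, 9 and 22 estimated counts. In WT lines 1 to 4 it was 3.18, 1.41, 2.25 and 3.15 CPM, from 197, 73, 119 and 185 counts. Line 2 was the highest of the SLMAP3-/- lines and line 2 the lowest of the WT lines, and the groups did not overlap. The gene was chosen for its difference, so this lack of overlap adds no support. The mean was 0.422 ± 0.326 CPM (SD, n = 4) in SLMAP3-/- and 2.50 ± 0.840 CPM (SD, n = 4) in WT lines, so SLMAP3-/- MEFs held 16.9% of the WT level. The log2 fold change fitted by edgeR was -2.57 ± 0.57 (SE). SLMAP3-/- line 2 had the most Arhgap36 of its genotype and was also the one with Y-linked reads. Among the 3 SLMAP3-/- and 3 WT lines without such reads, the means were 0.270 ± 0.141 and 2.58 ± 1.01 CPM (SD), which is 10.5% of the WT level. The lower share mostly follows from leaving out the SLMAP3-/- line nearest to WT. WT line 3, with such reads, was at 2.25 CPM, within the range of the other WT lines. A link between Arhgap36 and Y-linked reads was not tested, with 1 such line per genotype. In bulk RNA, fewer cells with the transcript and less of it per cell cannot be told apart.

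The promoters of Arhgap36, the member with the chosen difference, and of Hhip, the member with the widest range over the lines, are shown for comparison, without any readout of promoter activity. The sequences are from RefSeq on GRCm38.p6, run from 250 bases before to 50 bases after each annotated start, and have CpG dinucleotides in capitals. Of the 9 members, 8 matched the promoter table with 10 starts between them, and Gli1 did not.
Arhgap36, first start, chrX:49463695-49463994, plus strand: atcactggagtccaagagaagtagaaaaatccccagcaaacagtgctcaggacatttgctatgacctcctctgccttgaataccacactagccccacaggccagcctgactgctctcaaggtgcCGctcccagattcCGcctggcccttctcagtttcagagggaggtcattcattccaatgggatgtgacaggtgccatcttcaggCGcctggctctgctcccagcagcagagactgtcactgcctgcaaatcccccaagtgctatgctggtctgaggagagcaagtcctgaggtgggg
Arhgap36, second start, chrX:49470200-49470499, plus strand: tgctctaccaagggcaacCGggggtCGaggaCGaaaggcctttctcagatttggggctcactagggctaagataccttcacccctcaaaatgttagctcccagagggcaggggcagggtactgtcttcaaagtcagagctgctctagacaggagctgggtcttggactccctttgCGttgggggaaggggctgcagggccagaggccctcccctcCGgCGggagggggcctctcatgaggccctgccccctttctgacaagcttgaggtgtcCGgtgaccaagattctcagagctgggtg
Hhip, chr8:80057959-80058258, minus strand: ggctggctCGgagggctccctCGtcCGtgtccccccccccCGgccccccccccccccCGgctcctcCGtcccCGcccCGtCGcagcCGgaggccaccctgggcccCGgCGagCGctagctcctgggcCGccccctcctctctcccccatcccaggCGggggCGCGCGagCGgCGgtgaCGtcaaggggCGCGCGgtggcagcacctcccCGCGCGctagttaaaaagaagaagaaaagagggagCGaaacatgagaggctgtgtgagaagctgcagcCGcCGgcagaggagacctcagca
The first Arhgap36 start held 3 CpG and the second 7, against a median of 7 over 32851 promoters of the same length. Hhip held 30 CpG, and its G and C share was 73.7% against 55.7% and 60.3% at the first and second Arhgap36 start. The Gli binding motif GACCACCCA, searched on both strands, was in 0 of the 10 member promoters and in 0.253% of all promoters. With so rare a motif, 0 of 10 does not set the members apart, and Gli sites elsewhere were not searched. Counts were summed over each gene, so the share of Arhgap36 RNA from either start was not measured.

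Few other genes around Arhgap36 were expressed. Of 13 other annotated genes within 500 kb, a window chosen after the values were seen, 11 had at most 9 counts in every line. Enox2 was the 1 neighbour that could be tested, with a log2 fold change of -0.23 ± 0.20 (SE; edgeR, adjusted p = 1.00). Igsf1, 282 kb away, was read at 0 to 0.0803 CPM in SLMAP3-/- and 0.0387 to 0.629 CPM in WT lines, too few reads to test. Over the 507 other tested genes of chromosome X, the median log2 fold change was -0.01. None of the 3414 stretches of 31 bases in Arhgap36 transcripts was found in the transcript of another gene of the GENCODE M21 annotation.

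The other 8 members did not differ detectably between genotypes. With edgeR's quasi-likelihood test and Benjamini-Hochberg adjustment over all tested genes, 0 of 8 passed an adjusted p of 0.05, and 0.00647% of all tested genes did. That share is 1 of 15461 genes, so not passing this threshold says little about any single gene. None of the 8 reached an unadjusted p of 0.05, which 1.81% of tested genes reached, and none passed by limma-voom or by DESeq2, which called 0.0325% of its genes. In 0 of the 8 did SLMAP3-/- and WT lines separate without overlap, against 1.25% of tested genes. Exact permutation tests of log2 CPM gave two-sided p-values from 0.143 to 0.743, where 4 lines against 4 can go no lower than 0.0286. The 95% intervals of the difference were narrow for Smo, Sufu and Prkaca and wide for Gli1 and Hhip.

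**Figure D1:**
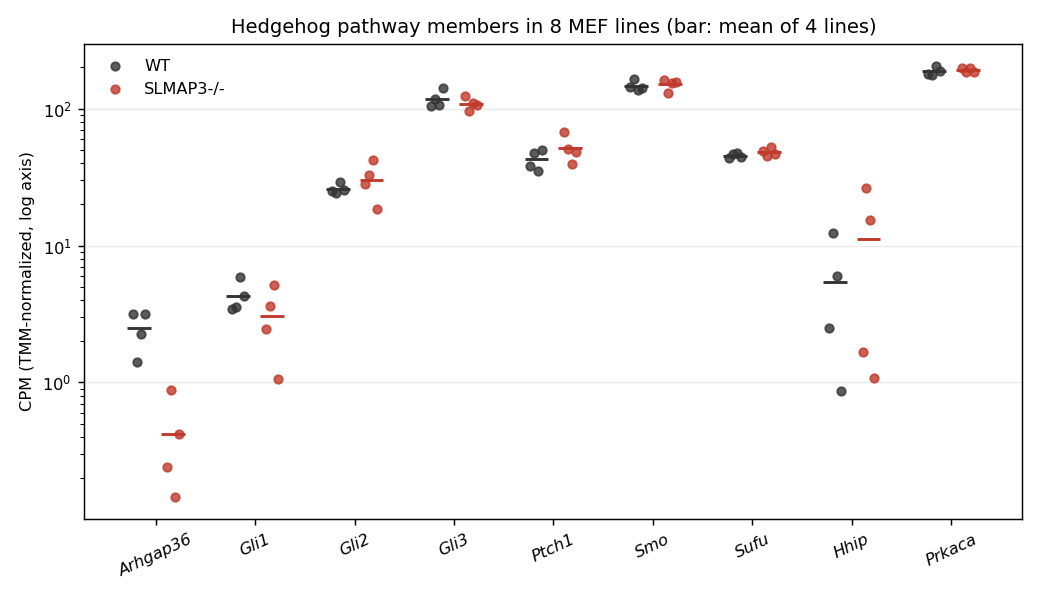
Level of each member in CPM on a log axis, with 1 point per line, WT in dark grey and SLMAP3-/- in red, and a bar at the mean of 4 lines. Arhgap36 is at 0.145 to 0.881 CPM in SLMAP3-/- and 1.41 to 3.18 CPM in WT lines, and the genotypes overlap in the other 8 genes.

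The transducers at the membrane and in the cytoplasm were steady. Smo (chr6:29735503-29761365, plus strand), the signal-passing protein of the cilium, was read at 161, 129, 155 and 157 CPM in SLMAP3-/- lines 1 to 4 and at 144, 165, 137 and 141 CPM in WT lines 1 to 4. The lowest line was SLMAP3-/- line 2 and the highest WT line 2, and the log2 fold change was 0.03 (95% interval -0.20 to 0.26). Sufu (chr19:46396896-46488804, plus strand), which holds Gli proteins in check, was at 48.8, 45.4, 52.2 and 46.8 CPM in SLMAP3-/- lines and at 43.4, 46.6, 47.3 and 44.3 CPM in WT lines. SLMAP3-/- lines 1 and 3 were above every WT line, and lines 2 and 4 were within the WT range. Its fitted change was 0.09 on the log2 scale (95% interval -0.09 to 0.27), with 0.143 as the exact permutation p.

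Prkaca (chr8:83972993-83996443, plus strand), the alpha catalytic subunit of protein kinase A that Arhgap36 binds, had the narrowest range. It was read at 196, 186, 197 and 184 CPM in SLMAP3-/- lines 1 to 4 and at 179, 174, 206 and 187 CPM in WT lines 1 to 4. The highest line was 1.18 times the lowest over all 8 lines, both of them WT. Its fitted change was 0.03 on the log2 scale (95% interval -0.16 to 0.22). Of its 31-base stretches, 2.97% were shared with Prkacb or the pseudogene Prkaca-ps1, so the division of reads between these genes adds some uncertainty. The same holds for Smo, which shared 2.88% of its stretches with other genes.

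Gli2 and Gli3, the factors that receive the signal, were both well expressed. Gli2 (chr1:118834132-119053619, minus strand), the main activator, was at 27.9, 32.7, 41.9 and 18.5 CPM in SLMAP3-/- lines 1 to 4 and at 24.8, 24.1, 29.1 and 25.5 CPM in WT lines 1 to 4. SLMAP3-/- lines held both the highest and the lowest value, 2.26-fold apart, while WT lines were within 1.21-fold. The log2 fold change was 0.22 (95% interval -0.28 to 0.73), and without SLMAP3-/- line 4 it was 0.40. Gli3 (chr13:15463235-15730026, plus strand), the main source of repressor, was at 124, 95.6, 110 and 106 CPM in SLMAP3-/- lines and at 104, 118, 106 and 142 CPM in WT lines. Its fitted change was -0.11 on the log2 scale (95% interval -0.39 to 0.17), and WT line 4 stood above all others.

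The target genes varied more. Gli1 (chr10:127329882-127341974, minus strand), which is induced when the pathway is on, was at 2.44, 3.62, 5.17 and 1.05 CPM in SLMAP3-/- lines 1 to 4 and at 3.43, 3.58, 5.85 and 4.30 CPM in WT lines 1 to 4. SLMAP3-/- lines 1 and 4 were below every WT line, and lines 2 and 3 were within the WT range. The mean was 3.07 ± 1.75 CPM in SLMAP3-/- and 4.29 ± 1.10 CPM in WT lines (SD, n = 4 each). The log2 fold change was -0.48 (95% interval -1.49 to 0.53), with an exact permutation p of 0.286. On the opposite strand, 5.30% of the 31-base stretches of Gli1 transcripts match Arhgap9 or Gm47200, and whether the counting used strand is not given in the sources used here.

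Ptch1 (chr13:63508328-63573598, minus strand), at once receptor and target, was at 67.7, 50.4, 39.6 and 47.9 CPM in SLMAP3-/- lines 1 to 4 and at 37.8, 47.5, 35.0 and 50.2 CPM in WT lines. SLMAP3-/- line 1 was highest, and the other lines of both genotypes lay between 35.0 and 50.4 CPM. The log2 fold change was 0.27 (95% interval -0.15 to 0.69), with an exact permutation p of 0.200, and without SLMAP3-/- line 1 it was 0.11. The mean of Ptch1 was thus higher and that of Gli1 lower in SLMAP3-/- lines, and neither difference passed a test.

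Hhip (chr8:79965851-80058006, minus strand), which binds Hedgehog ligands at the cell surface and damps the signal, was the least stable member. It was at 1.68, 26.5, 15.3 and 1.07 CPM in SLMAP3-/- lines 1 to 4, and at 2.52, 12.3, 5.98 and 0.867 CPM in WT lines 1 to 4. High and low lines occurred in both genotypes, with a range of 24.7-fold within SLMAP3-/- and 14.2-fold within WT lines. These levels rest on 51 to 1323 estimated counts per line, so counting error is small beside the spread. The log2 fold change was 1.04 with a 95% interval of -1.44 to 3.51, and it was 0.16 without SLMAP3-/- line 2 and 1.83 without WT line 2.

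Line-to-line spread was set beside that of all tested genes. The SD of log2 CPM between lines of a genotype was 1.98 for Hhip, higher than in 98.6% of tested genes, whose median was 0.275. It was 0.81 for Arhgap36 and 0.73 for Gli1, at the 86.4th and 83.6th percentiles, and both genes had mean levels under 5 CPM. Gli2, Ptch1 and Gli3 were between 0.36 and 0.18. Smo at 0.13, Prkaca at 0.083 and Sufu at 0.074 were among the steadier genes, with Sufu lower than all but 2.26% of tested genes.

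**Figure D2:**
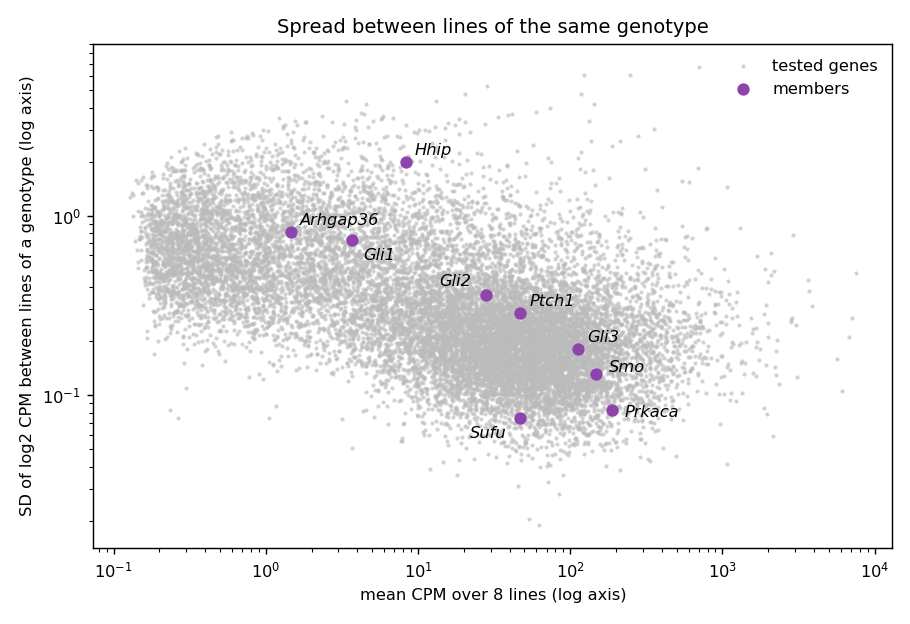
SD of log2 CPM between lines of the same genotype (log axis) against the mean CPM over 8 lines (log axis), for every tested gene in grey and the 9 members in purple. Hhip lies high above the bulk of genes of its level with an SD of 1.98, and Sufu and Prkaca lie at its lower edge with 0.074 and 0.083.

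To compare members with each other, CPM was divided by the length in kb of the longest coding transcript. In WT lines the order was Prkaca with 82.0 ± 6.14 CPM per kb, Smo with 38.9 ± 3.32, Gli3 with 14.4 ± 2.12, Sufu with 10.0 ± 0.405, Ptch1 with 5.52 ± 0.951, Gli2 with 3.90 ± 0.336, Gli1 with 1.06 ± 0.272, Arhgap36 with 0.823 ± 0.277 and Hhip with 0.598 ± 0.560 CPM per kb (SD, n = 4). Over all 8 lines, the ranges of Ptch1 and Gli2 overlapped, as did those of Gli1 and Arhgap36 and those of Arhgap36 and Hhip. Hhip, at 0.0956 to 2.92 CPM per kb, also covered the range of Gli1 (0.260 to 1.44) and reached that of Gli2 (2.79 to 6.32). The genes of each such pair cannot be ordered beyond their spread. The values depend on the length used, and which transcripts the lines express is not known. Per kb of the mean length of a gene's coding transcripts, a scale added after seeing the data, the order was the same. On that scale Gli3, at 33.1 ± 4.88 CPM per kb, overlapped Smo at 38.9 ± 3.32 (SD, n = 4). Sufu at 16.8 ± 0.678 overlapped Ptch1 at 12.2 ± 2.10 (SD, n = 4). Sufu, at 16.1 or more in each line, also overlapped Gli2, which reached 17.3 in its highest line. Prkaca, the kinase subunit, was therefore read at a far higher level per kb than its inhibitor Arhgap36, in WT as in SLMAP3-/- lines.

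The rest of the pathway was described by 6 lists with 61 genes other than Arhgap36, of which 57 were tested. In edgeR 0 of the 57 rose and 0 fell, 0 passed by DESeq2 or limma-voom, and 1 had an unadjusted p under 0.05, that is 1.75% against 1.81% of all tested genes. The median log2 fold change was 0.02, against -0.0014 over all tested genes, and 50 of the 57 lay within 0.5 of 0. The genotypes did not overlap in 1 of the 57, that is 1.75% against 1.25% of all tested genes. The lists share Gli1, Ptch1 and Hhip, which are counted once.

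Ligand transcripts were scarce. Shh was read at 0 counts in 6 of 8 lines, where a count of 0 allows up to 0.0482 to 0.0600 CPM, and at 0.0192 CPM or less in the others, and Ihh at 0.0645 to 0.161 CPM, both under the filter. Dhh, the ligand of testis and peripheral nerve, ranged from 0.0774 to 0.822 CPM, with a log2 fold change of -0.32 ± 0.73 (SE). Of the genes for ligand acylation and release, Hhat had the highest log2 fold change with 0.24 and Scube3 the lowest with -0.89, and neither passed the test.

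Among receptors and co-receptors, 8 of 8 genes were tested. Ligand-binding Cdon (47.5 to 179 CPM), Boc (16.8 to 69.1 CPM) and Gas1 (202 to 578 CPM), which assist Ptch1, were expressed in every line, and the genotypes overlapped in each. Lrp2, an endocytic receptor, had the lowest log2 fold change of the list, -1.09 ± 0.64 (SE). Gpc3, a proteoglycan that competes for ligand, ranged from 0.790 CPM in WT line 1 to 97.3 CPM in SLMAP3-/- line 1. The median of the list was 0.18.

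All 12 genes of the list on Smo and the cilium were tested and kept within 0.5 of 0. Iqce, which anchors the Evc complex at the base of the cilium, had the highest value with 0.19 and Arrb1 the lowest with -0.23. The 17 genes on Gli factors and their regulators ranged from -0.48 for Gli1 to 0.30 for Dyrk2, a kinase that acts on Gli2 and Gli3, with a median of 0.01. Gpr161, a ciliary receptor that keeps protein kinase A active, was at 24.5 to 33.9 CPM, with a log2 fold change of 0.10 ± 0.11 (SE).

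In the protein kinase A list, 8 genes besides Arhgap36 were tested and 0 passed. Prkar1a, a regulatory subunit, was the 1 gene of the 57 without overlap, at 372 to 400 CPM in SLMAP3-/- and 412 to 445 CPM in WT lines. The difference of -0.13 ± 0.08 (SE) on the log2 scale did not pass (edgeR, adjusted p = 1.00). Prkar1b had the lowest value with -0.65 and Pkig, a heat-stable kinase inhibitor, the highest with 0.17. Pkia, the best known of these inhibitors, was at 10.4 to 14.6 CPM in SLMAP3-/- and 8.62 to 23.4 CPM in WT lines.

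Of 11 target genes, 10 were tested. Foxf1, a forkhead factor of the embryonic mesenchyme, had the lowest log2 fold change with -1.21 ± 0.45 (SE). It was at 0.987, 1.40, 1.72 and 1.42 CPM in SLMAP3-/- lines 1 to 4 and 1.19, 4.49, 2.21 and 4.91 CPM in WT lines 1 to 4. WT line 1 was within the SLMAP3-/- range, and the unadjusted p of 0.026 did not hold after adjustment (edgeR, adjusted p = 1.00). Foxf2 was at 15.0 to 25.6 CPM with a log2 fold change of -0.02. Ccnd1 and Ccnd2, cell cycle genes with many inputs besides Hedgehog, were lowest in SLMAP3-/- line 4, at 21.0 and 36.9 CPM. That was also the line with the least Gli1 and Gli2. Of the other target members there, Ptch1, at 47.9 CPM, was within the range of the other lines. Hhip, at 1.07 CPM, was the lowest of the SLMAP3-/- lines. A link between these levels was not tested.

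**Figure D3:**
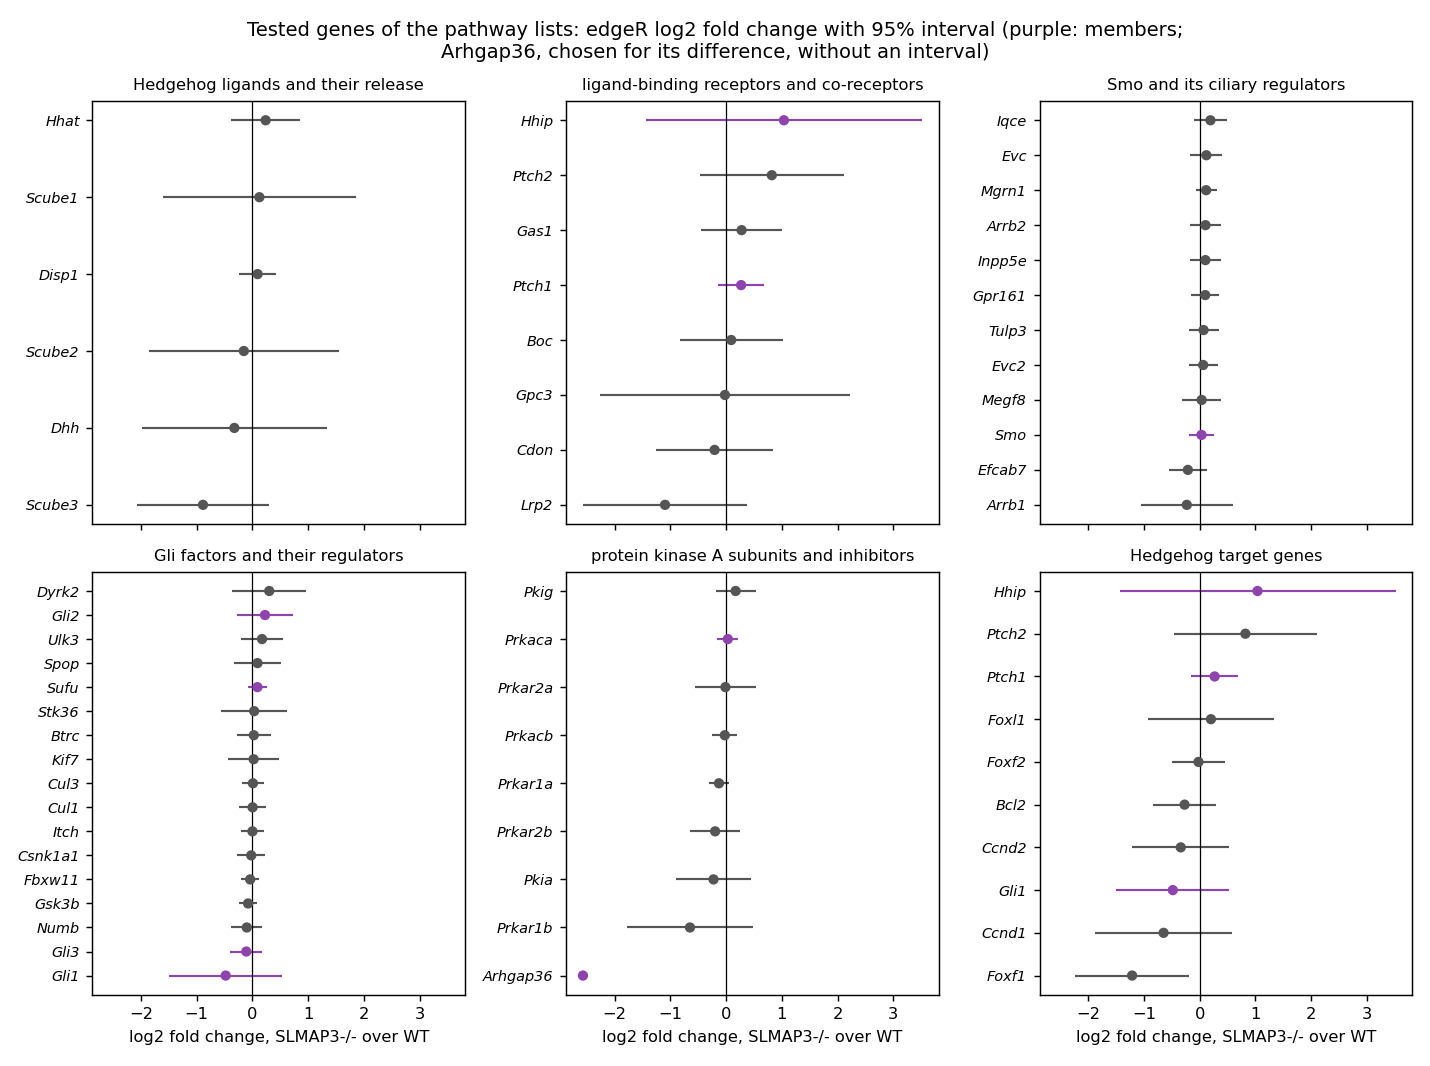
Log2 fold change of SLMAP3-/- over WT lines for the tested genes of the 6 lists, with the 95% interval from edgeR as a line and the 9 members in purple. Arhgap36 is drawn without an interval because it was chosen for this difference, and Foxf1, at -1.21, is the 1 other gene whose interval does not reach 0 before adjustment.

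Whether the targets moved together was asked across the 8 lines with log2 CPM. Gli1 and Hhip had a Pearson r of 0.50 (exact permutation p = 0.208, adjusted 0.604) and a Spearman rho of 0.40 (exact permutation p = 0.327, adjusted 0.720). Gli1 and Ptch1 had r = -0.46 (exact permutation p = 0.245, adjusted 0.604) and rho = -0.45 (exact permutation p = 0.267, adjusted 0.720). Ptch1 and Hhip had r = -0.28 (exact permutation p = 0.503, adjusted 0.604) and rho = -0.19 (exact permutation p = 0.665, adjusted 0.752). The adjustment is over a family of 6 relations. None of the 3 was past the threshold, so common movement of the targets was not detectable with 8 lines. Without the 2 lines farthest from the median of the first gene, r was 0.32, -0.70 and -0.08. Taken as deviations from the genotype means, r was 0.65, -0.32 and -0.40. The other 3 relations, of Arhgap36 with each target, are not given as a pooled r because the genotypes form 2 separate clusters in Arhgap36. As deviations from the genotype means, r was -0.21 with Gli1 (permutation p = 0.635), 0.07 with Ptch1 (permutation p = 0.873) and -0.10 with Hhip (permutation p = 0.820). Each p was 0.873 after adjustment. These p-values are approximate, because deviations from genotype means cannot be exchanged freely between genotypes.

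**Figure D4:**
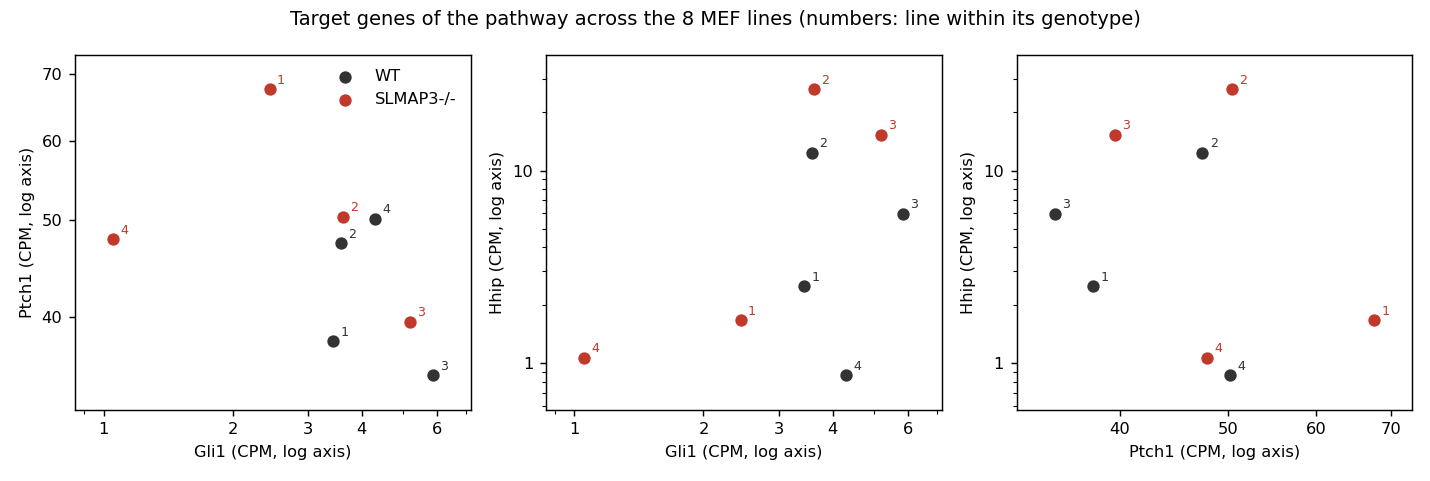
Gli1, Ptch1 and Hhip against each other in CPM on log axes, 1 numbered point per line, WT in dark grey and SLMAP3-/- in red. The left and right panels have r of -0.46 and -0.28 and the middle panel 0.50, none past the threshold, and the genotypes overlap on each axis.

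The pattern of Arhgap36 over the 8 lines was most like that of Myb, with a Pearson r of 0.94 among 15460 genes. The next were Gm49867 with 0.94, Zfp35 with 0.93, Mettl15 with 0.92 and Ttc41 with 0.91. These values describe 8 points that share the split by genotype, and carry no test. Myb, a transcription factor best known from blood progenitors, was at 0.691 to 0.821 CPM in SLMAP3-/- and 1.06 to 1.34 CPM in WT lines. Gm49867, annotated as a processed pseudogene, was at 0 to 0.640 CPM in SLMAP3-/- and 1.29 to 1.53 CPM in WT lines, and its reads may be shared with a parent gene. Ranked by Spearman's rho, 2 of these 5 genes stayed among the first 5.

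Arhgap36 is known from neural and endocrine tissue, so 7 neural and motor neuron markers were read beside it. Their summed level was 10.9 to 22.9 CPM in SLMAP3-/- and 10.5 to 17.4 CPM in WT lines, nearly all of it Tubb3, and the genotypes overlapped. The motor neuron markers Mnx1 and Chat were at 0.0383 CPM or less in every line. Isl1 reached 0.948 CPM in WT line 2, the WT line with the least Arhgap36.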

How the data were processed

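Total RNA of 8 immortalized MEF lines was sequenced as stranded, poly(A)-selected libraries. The authors assigned reads to the GRCm38 GENCODE M25 transcriptome with Salmon, and the authors deposited estimated counts per gene that were adjusted for transcript length, with no scaling between lines. Salmon's version and strand setting are not given in the sources used here. A second deposited table, with fold changes and p-values of the authors' own comparison by DESeq2, was not used.

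The deposited estimated counts were rounded. With edgeR 4.0.16 (R 4.3.3), genes were kept by filterByExpr (minimum count of 10, groups by genotype), libraries were scaled by TMM, and the quasi-likelihood test compared 4 SLMAP3-/- with 4 WT lines. Benjamini-Hochberg adjustment was over 15461 genes, and 0.05 was the threshold. Log2 CPM used a prior count of 2. Alternatives were DESeq2 1.42.0, limma-voom (limma 3.58.1), DESeq2's size factors, 2 other filters, a block on replicate number, Y-linked expression as covariate and leaving out each line. The count models were tested on simulated data. Permutation tests and correlations used numpy 2.4.6 in Python 3.11.15 and are two-sided. They are exact except for deviations from genotype means, where the p-values are approximate. Gene positions and transcripts were from GENCODE M21 on GRCm38, and promoters from RefSeq on GRCm38.p6.

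The members and the gene lists were chosen with earlier results of these data known. The results of 1 further gene list are not reported here. The genes named are the members, the ligands Shh, Ihh and Dhh, every gene of a list past the threshold or without overlap between genotypes, the largest rise and fall in each list, and the 5 genes most like Arhgap36. Others (Cdon, Boc, Gas1, Gpc3, Gpr161, Pkia, Foxf2, Ccnd1, Ccnd2, Isl1, Acan, Col2a1, Xist, Enox2, Igsf1) were named after their values were seen. Depth was similar between lines (49879059 to 63322486 estimated counts), and for well-expressed genes the spread between lines, not counting error, limits precision.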

Additional observations from a re-analysis of the deposited data

How the results depend on the processing

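Over 15 alternatives the log2 fold change of Arhgap36 ranged from -3.21 without SLMAP3-/- line 2 to -2.28 without SLMAP3-/- line 3. The gene was chosen for this difference and its groups do not overlap, so its constant sign is no sign of stability. A minimum of 10 counts in every library removed the gene, which had 9 counts in SLMAP3-/- line 3. Over 16 alternatives each, the other 8 members kept their direction, and none passed an adjusted p of 0.05 (edgeR, DESeq2 or limma-voom). Leaving out 1 line moved Gli1 between -0.86 and -0.20, Gli2 between 0.03 and 0.40, Ptch1 between 0.11 and 0.38 and Hhip between 0.16 and 1.83. The number of genes called over the whole table was 1 in edgeR, 11 in DESeq2 and 1 in limma-voom and in the other alternatives except the block. With the replicate block, edgeR called 0 genes, with 294 at an unadjusted p under 0.05, and Hhip's log2 fold change was 0.57. Lines of the same number had correlations of deviations from -0.16 to 0.19, and lines of different numbers from -0.16 to 0.18. The replicate numbers thus gave no ground for pairing the lines. The deposited names of SLMAP3-/- line 3 and WT line 4 share a number whose meaning is not given, and no pairing was made from it. Pearson's r among Gli1, Ptch1 and Hhip kept its sign under the 12 alternatives, and none passed the threshold. Spearman's rho of Ptch1 with Hhip turned from -0.19 to 0.04 without SLMAP3-/- line 1 and to 0.03 without the 2 lines farthest from the median. The strongest was Gli1 with Ptch1 without SLMAP3-/- line 4, at r = -0.80 (exact permutation p = 0.032, adjusted 0.190). By Spearman's rho, 2 of the 5 genes most like Arhgap36 were shared with the list by Pearson's r. With 9 to 44 counts in SLMAP3-/- lines, Arhgap36's level there carries counting error that deeper sequencing would reduce.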
